A study of Homo sapiens with 68 samples.

Results

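The genes described here are 60 human ribosomal protein genes, from RPL3 to RPS27A: 36 of the large ribosomal subunit, 21 of the small subunit and the 3 acidic stalk genes RPLP0, RPLP1 and RPLP2. They were taken as a fixed list of Ensembl gene identifiers, with no measured value used, and every peak that the deposited peak lists assign to these identifiers was collected. The 60 genes are 60 of the 22843 genes with a peak anywhere in the 68 lists, and their 39414 peaks are 0.249% of the 15800601 peaks listed. All 60 had peaks, in 56 to 64 of the 68 libraries each. RPL24 was listed in the fewest libraries (56), followed by RPS7 (57) and RPL7 (58).

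Ribosomal proteins are the protein part of the ribosome, and their messenger RNAs are among the most abundant in a growing cell. Most begin with a run of pyrimidines at the very 5′ end, the terminal oligopyrimidine (TOP) element, through which growth signalling controls their translation. Their genes are short, and many carry small nucleolar RNAs (snoRNAs) in their introns: box C/D snoRNAs (SNORD) guide ribose methylation and H/ACA snoRNAs (SNORA) guide pseudouridylation, mostly of ribosomal RNA, and both are trimmed out of the excised intron. Of the 60 genes, 25 hold at least 1 snoRNA gene within their span in RefSeq (53 snoRNAs in all), and 35 hold none. The strand of these RefSeq snoRNAs was not checked. RPL28 counts as a host with 1 RefSeq snoRNA, though the peak lists hold 0 small genes nested in it. RPS7 counts as a gene without a snoRNA, though the lists hold 1 small gene nested in it, which could not be named.

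The libraries come from TLC-CLIP, an immunoprecipitation method that sequences the RNA fragments bound to a protein after short-wave UV light has linked the RNA to it, in HEK293T cells, a human embryonic kidney line. Antibodies were against hnRNPA1, hnRNPc, hnRNPI (also known as PTBP1) and RBM9 (RBFOX2), all nuclear RNA-binding proteins with roles in splicing. The main libraries came from 50000 cells at 0.005 U of RNase, with RNA-protein complexes cut from a denaturing gel (with PAGE) or without that gel step (without PAGE), the latter also with the exonuclease RecJ. Each group has 2 libraries: UV with PAGE, UV without PAGE, UV without PAGE with RecJ, no UV with PAGE, and no UV without PAGE, for each of the 4 proteins. Other groups were hnRNPA1 and hnRNPc at 0.025 U of RNase with PAGE, hnRNPc without PAGE titled 5k and 500 cells with and without RecJ, and hnRNPc and RBFOX2 with PAGE from 10000 cells at 0.001 U and from 1000 cells at 0.0001 U. The remaining 8 libraries are gel regions of hnRNPc immunoprecipitates between 50 and 250 kDa from 10000 cells. Libraries without UV are named by their titles, while the protocol text is the same for all samples and describes crosslinking. The labels of the hnRNPc 5k and 500 libraries give 50000 cells, so the number in the title is used for them. Libraries without UV, those labelled 10000 or 1000 cells and the gel regions are numbered in a later, separate block of the series. A difference between the blocks cannot be told apart from that of UV or of these cell numbers. Nothing in the labels says that the 2 libraries of a group came from separate cultures, so p-values measure only the spread between these libraries, which may be technical.

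The sequence around the start site holds a run of pyrimidines in most of these genes. RefSeq start sites (build GRCh38.p14) were available for 46 of the 60 genes, each in a window from 15 bases before to 15 bases from the start, read 5′ to 3′ on the transcript's strand. Capitals mark the longest run of C and T. RPL3, RPL13A and RPL7A are shown because they are among those that differ most between the proteins, RPS3 and RPS24 because they are prominent without UV, and RPL24 because it was listed least often.
RPL3 (chr22:39319609-39319638, minus strand): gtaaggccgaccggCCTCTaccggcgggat
RPL13A (chr19:49487593-49487622, plus strand): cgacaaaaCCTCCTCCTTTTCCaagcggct
RPL7A (chr9:133348203-133348232, plus strand): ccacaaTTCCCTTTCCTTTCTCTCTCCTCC
RPS3 (chr11:75399503-75399532, plus strand): gcccgcgagccaCTTCCTTTCCTTTCagcg
RPS24 (chr10:78033848-78033877, plus strand): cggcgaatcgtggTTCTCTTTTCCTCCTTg
RPL24 (chr3:101686704-101686733, minus strand): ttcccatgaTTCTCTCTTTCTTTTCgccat
A run of at least 8 letters, each C or T, was found in 35 of the 46 windows (76.1%), against 4797 of all 35116 RefSeq windows of the same length (13.7%). The run covered the start base itself in 31 of the 46 (67.4%), against 4.72% of all windows. The longest run had a median of 11 letters in the ribosomal protein genes and 4 in all windows. RPL3 and RPL13, with longest runs of 5 and 4 letters in their windows, were among those without a long run. A run can begin before the start base, as in RPL13A and RPL7A, so these are not counts of TOP elements.

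The lists hold peaks, not all reads, so the depth of each library is unknown and all values are relative to what was listed. Ribosomal protein genes also have many near-identical processed pseudogenes, which can share their reads. Crosslinked libraries listed 3268 to 523402 peaks (median 310076), libraries without UV 18690 to 299616, and gel regions 303 to 6716. A peak's name ends in a number, read here as the reads of that peak. Peaks of 1 gene closer than 30 nt were joined and the highest number counted once, and the sum over a gene is given per 1000000 of the library's listed reads (reads per 1000000 listed reads, RPM). Replicate 1 of hnRNPc with PAGE (UV, 50000 cells) stood apart from its partner, with 3268 listed peaks against 214849. It held 39 peaks in 26 of the ribosomal protein genes against 626 peaks in all 60, and its values are given with each result they touch. The gel regions held 1 to 44 ribosomal protein peaks each, 0.0711% to 0.287% of their reads, and are not used further. No ribosomal protein gene was among the 10 genes with most reads in any library.

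The share of a library's reads that fell on ribosomal protein genes differed between the 4 proteins: it was highest with RBFOX2 and lowest with hnRNPI. Among crosslinked libraries without PAGE, the genes took 1.60% and 1.58% of listed reads with RBFOX2, 0.396% and 0.380% with hnRNPA1, 0.359% and 0.340% with hnRNPc, and 0.137% and 0.117% with hnRNPI. The pairs did not overlap. The highest and lowest protein means differed 12.5-fold (exact permutation test over all assignments of 8 libraries to 4 pairs, p = 0.00952, the smallest this design can give; adjusted p = 0.0190 over 14 tests of shares). As a share of peaks the range was narrower, from 0.477% and 0.476% with RBFOX2 to 0.124% and 0.123% with hnRNPI, a 3.86-fold difference (exact permutation p = 0.00952, adjusted p = 0.0190). With PAGE the order of reads was the same at both ends: RBFOX2 had 0.926% and 0.977% and hnRNPI 0.100% and 0.113%, with hnRNPA1 at 0.384% and 0.397% and hnRNPc at 0.872% and 0.488%. That range was 8.92-fold (exact permutation p = 0.00952, adjusted p = 0.0190). The share of peaks with PAGE did not pass after adjustment (exact permutation p = 0.0476, adjusted p = 0.0741), and there the highest share, 1.19%, was that of hnRNPc replicate 1.

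**Figure D1:**
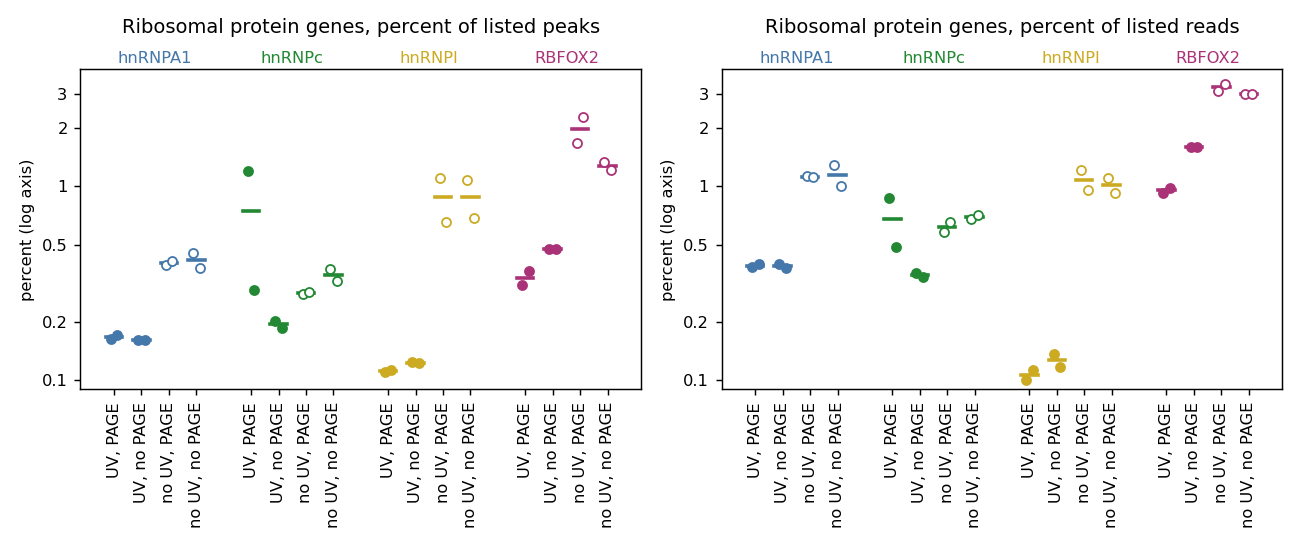
Percent of listed peaks (left) and of listed reads (right) on the 60 ribosomal protein genes, on log axes, for the 4 proteins in 4 conditions from 50000 cells. Each circle is a library (filled, UV; open, no UV) and each bar the mean of 2; in every protein the 2 libraries without UV and without PAGE lie above the 2 crosslinked libraries without PAGE.

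The share of ribosomal protein genes was higher in the libraries without UV. Without PAGE, hnRNPI rose from 0.127% ± 0.0143 to 1.01% ± 0.125 of listed reads (mean ± SD, n = 2), hnRNPA1 from 0.388% ± 0.0114 to 1.14% ± 0.206, hnRNPc from 0.349% ± 0.0131 to 0.695% ± 0.0228 and RBFOX2 from 1.59% ± 0.0112 to 2.99% ± 0.0166. Both libraries without UV lay above both crosslinked libraries in 4 of 4 proteins. The folds were 7.93 for hnRNPI, 2.93 for hnRNPA1, 1.99 for hnRNPc and 1.88 for RBFOX2. The mean over proteins was 3.05-fold (exact permutation test within proteins, two-sided, p = 0.00154, the smallest this design can give; adjusted p = 0.0108). For peaks it was 3.04-fold, with the same p and the same count of proteins. Outside small genes nested in these genes (described below), mean shares of reads went from 0.0779% to 0.677% with hnRNPI and 0.372% to 1.08% with hnRNPA1. They went from 0.336% to 0.662% with hnRNPc and from 0.561% to 2.27% with RBFOX2, which then did not have the smallest fold.

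With PAGE the reads gave 3.10-fold over the 4 proteins (exact permutation p = 0.00617, adjusted p = 0.0190), with 3 of 4 proteins higher. The folds were 10.1 for hnRNPI, 3.39 for RBFOX2 and 2.87 for hnRNPA1, while the hnRNPc pairs overlapped (0.872% and 0.488% with UV, 0.579% and 0.651% without). The share of peaks was 2.67-fold (exact permutation p = 0.0278, adjusted p = 0.0486), and the test was lost when hnRNPc replicate 2 with UV and PAGE was left out (1.16 on the log2 scale, exact permutation p = 0.0957). Lists without UV were shorter than their crosslinked partners in 4 of 4 proteins without PAGE and in 3 of 4 with PAGE. The exception was hnRNPc with PAGE, with 299616 and 299307 peaks without UV against 3268 and 214849 with UV. The part of list length in these shares was not tested on its own. With every list held to its 18000 peaks of smallest p, the UV differences were 1.51 (with PAGE) and 1.54 (without PAGE) on the log2 scale for peaks, and 1.61 and 1.47 for reads (exact permutation p = 0.00154 for each).

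Leaving out PAGE did not move the share in 1 direction. Reads went from 0.951% ± 0.0361 to 1.59% ± 0.0112 (mean ± SD, n = 2) with RBFOX2 and from 0.107% ± 0.00937 to 0.127% ± 0.0143 with hnRNPI, without overlap. They went from 0.680% ± 0.271 to 0.349% ± 0.0131 with hnRNPc, also without overlap, and the hnRNPA1 pairs overlapped at 0.391% ± 0.00961 and 0.388% ± 0.0114. The mean over proteins was 0.02 on the log2 scale (exact permutation p = 0.968). Outside small genes nested in these genes (described below), it was -0.26 (exact permutation p = 0.0293). There the RBFOX2 pairs overlapped, and hnRNPI had 0.0819% and 0.0845% with PAGE and 0.0805% and 0.0754% without. Adding RecJ changed the share by 0.04 (exact permutation p = 0.166), with 5 of 6 pairs of groups higher. For hnRNPA1, 0.025 U of RNase gave 0.383% and 0.382%, close to 0.384% and 0.397% at 0.005 U. For hnRNPc it gave 0.340% and 0.339%, below the 0.872% and 0.488% at 0.005 U. The first of these 2 libraries at 0.005 U is the one with 3268 listed peaks. The RNase amount was not tested.

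Cell number was tested in the hnRNPc libraries without PAGE, over titles of 50k, 5k and 500 cells with and without RecJ. Without RecJ the genes took 0.359% and 0.340% of reads at 50k, 0.313% and 0.304% at 5k, and 0.378% and 0.358% at 500. With RecJ they took 0.348% and 0.322% at 50k, 0.330% and 0.320% at 5k, and 0.402% and 0.385% at 500. Values at 500 overlapped those at 50k without RecJ and lay above them with RecJ (slope -0.08 on the log2 scale per 10-fold cells, exact permutation p = 0.0990, adjusted p = 0.139). The share of peaks went from 0.203% and 0.186% at 50k to 0.234% and 0.232% at 500 (slope -0.17, exact permutation p = 0.00864, adjusted p = 0.0190), but with every list held to 18000 peaks the slope was 0.20 (exact permutation p = 0.000988), in the other direction. With PAGE, hnRNPc gave 0.358% and 0.355% of reads from 10000 cells and 0.358% and 0.332% from 1000. RBFOX2 gave 0.710% and 0.770% from 10000 cells and 0.790% and 0.696% from 1000, below its 0.926% and 0.977% from 50000. Outside small genes nested in these genes (described below), the RBFOX2 share was not lower from fewer cells. It was 0.593% and 0.620% from 10000 cells, 0.628% and 0.548% from 1000, and 0.547% and 0.590% from 50000. RNase fell together with cell number in these libraries, so the 2 cannot be told apart.

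Reads over nested small genes were a larger part of the ribosomal protein reads with RBFOX2 and hnRNPI than with hnRNPA1 and hnRNPc. The lists hold 49 small genes nested in these genes on the same strand, of which 46 could be named: 32 box C/D snoRNAs and 14 H/ACA snoRNAs. A peak over a snoRNA is listed for the host gene too, and such peaks make up part of a host's reads. In crosslinked RBFOX2 libraries without PAGE, 65.6% and 63.8% of ribosomal protein reads lay over these small genes, and with PAGE 40.9% and 39.6%. In hnRNPI libraries without PAGE the values were 41.4% and 35.6%, in hnRNPA1 4.38% and 3.83% and in hnRNPc 3.60% and 3.81%. With PAGE, hnRNPI had 18.2% and 25.5%, below RBFOX2. Without UV the order of these proteins turned: without PAGE, hnRNPI had 33.8% and 32.0% and RBFOX2 22.1% and 25.8%, and with PAGE 33.6% and 35.1% against 25.5% and 28.4%. Outside the small genes, the RBFOX2 share of the library was 0.550% and 0.573% without PAGE and 0.547% and 0.590% with PAGE, so the pairs overlapped. Outside them, hnRNPA1 kept 0.378% and 0.365% without PAGE, hnRNPc 0.346% and 0.327%, and hnRNPI 0.0805% and 0.0754%, in the same order as before.

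**Figure D2:**
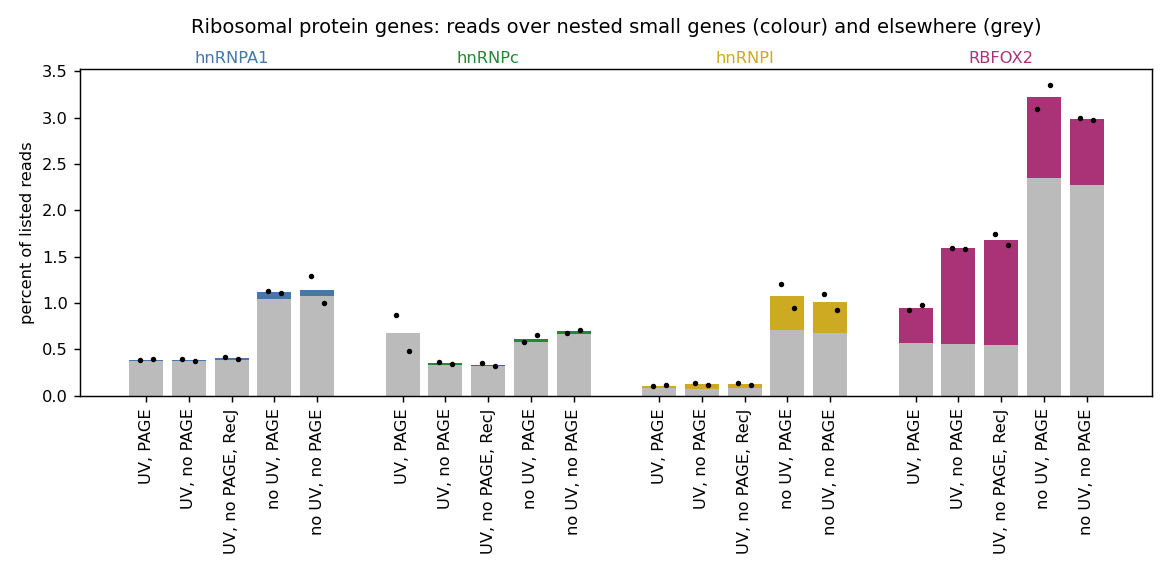
Percent of each library's listed reads on ribosomal protein genes, split into reads over nested small genes (coloured) and elsewhere (grey), as the mean of 2 libraries per group; dots are the totals of the 2 libraries. The coloured part is the larger one only in RBFOX2 with UV and without PAGE, with or without RecJ, among the 20 groups drawn.

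Box C/D snoRNAs of RPL3 and RPL13A, and SNORA7A of RPL32, stood highest among the small genes in the comparison of RBFOX2 with the other proteins. SNORD83B, in RPL3, had 772 and 785 RPM in crosslinked RBFOX2 libraries without PAGE, against 6.75 and 6.21 with hnRNPA1, 5.78 and 4.66 with hnRNPc and 28.7 and 19.4 with hnRNPI. It made up 45.2% and 47.7% of the RPL3 reads in those RBFOX2 libraries. Its own entry was 5.40 higher on the log2 scale in RBFOX2 than in the mean of the other proteins (SE 0.21, limma adjusted p = 1.20e-21). SNORD83A, in the same gene, was 5.16 higher, SNORD33 of RPL13A 4.84 and SNORA7A of RPL32 4.65. SNORA7A alone held 96.7% and 96.9% of the RPL32 reads in RBFOX2 without PAGE. Of the 46 small genes tested, 45 were higher in RBFOX2 and 0 lower (median 3.22), where 22.5% of all genes were higher and 37.4% lower.

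The small genes followed the RBFOX2 preparation as well. SNORD83B RPM went from 235 and 272 with PAGE to 772 and 785 without, and were 39.8 and 63.0 from 10000 cells with PAGE, 30.6 and 55.8 from 1000, and 353 and 403 without UV or PAGE. Its libraries from 10000 and 1000 cells were thus the lowest, and no pair overlapped between these preparations except those of 10000 and 1000 cells. The H/ACA snoRNA SNORA21 of RPL23 varied less, at 231 and 201 with PAGE, 312 and 317 without, 124 and 141 from 10000 cells and 259 and 141 from 1000. Box C/D reads were 3.01 and 3.00 times the H/ACA reads in RBFOX2 without PAGE, 2.10 and 2.09 times with PAGE, 0.753 and 1.11 times from 10000 cells, and 0.465 and 0.596 times from 1000 cells. The fall of this ratio moved with RNase and cell number together. Leaving out PAGE raised 15 of the 46 small genes and lowered 0 over the 4 proteins (median 0.36 on the log2 scale), where 2.68% of all genes were higher and 1.20% lower, but that count was 0 with each library centred on its median and 3 with a pseudocount of 1.

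**Figure D3:**
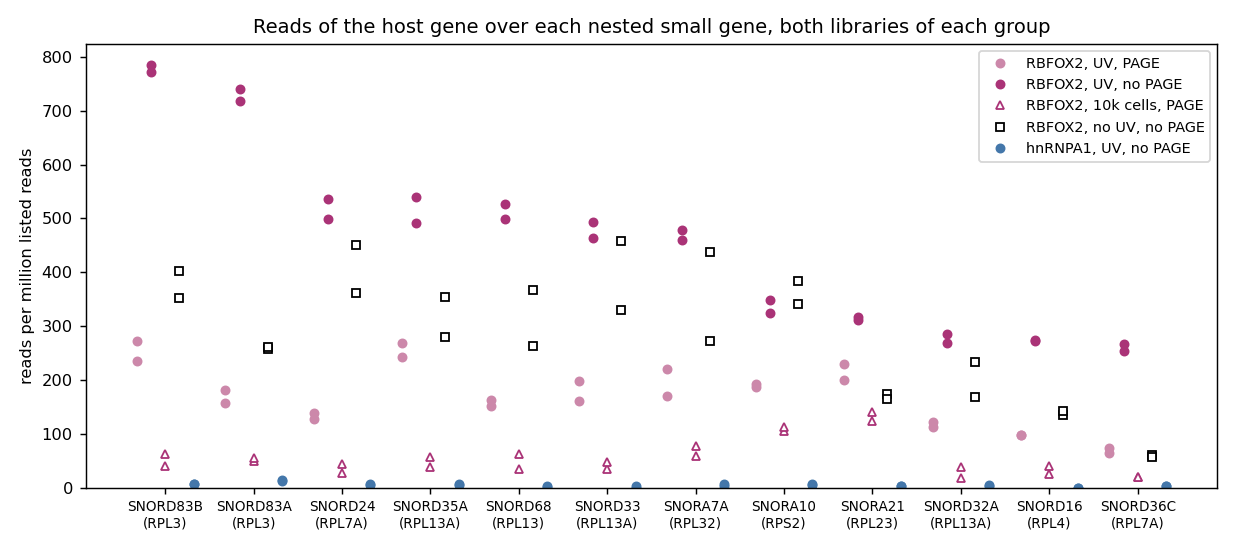
RPM over 12 of the nested small genes with most reads in RBFOX2, with the host gene in brackets, on a linear axis; each symbol is a library. For SNORD83B, RBFOX2 with UV and without PAGE (772 and 785) lies above every other group drawn, and hnRNPA1 (6.75 and 6.21) lies near 0.

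Gene by gene, RBFOX2 libraries stood above the mean of the other 3 proteins for most ribosomal protein genes. This and the next comparisons used limma on log2(RPM + 10) for 17075 genes, with crosslinked libraries without PAGE from 50000 cells, and each protein set against the mean of the other 3, so the 4 comparisons share libraries. In RBFOX2, 59.8% of all genes tested passed an adjusted p of 0.05 (22.5% higher, 37.4% lower). Of the 60 ribosomal protein genes, 53 were higher and 0 lower, with a median of 1.56 against -0.18 for all genes. All 25 snoRNA hosts were higher (median 2.87) and 28 of the 35 others (median 1.11).

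The 4 genes with the greatest rise were all hosts. RPL13A (ENSG00000142541, listed peaks at chr19:49990870-49995542, hg19), whose protein is also part of an inhibitor of translation after interferon, had 1559 and 1462 RPM with RBFOX2, 60.6 and 44.4 with hnRNPA1, 61.7 and 52.1 with hnRNPc and 49.9 and 45.6 with hnRNPI. RBFOX2 was far above all 6 other libraries, by 4.61 on the log2 scale (SE 0.39, limma adjusted p = 1.51e-12). RPL7A (ENSG00000148303, chr9:136215081-136218176, hg19), a large-subunit gene with 4 nested snoRNAs, had 958 and 898 with RBFOX2 and 19.3 to 47.0 in the other proteins' libraries (4.53, SE 0.30, limma adjusted p = 2.17e-15). RPL13 rose by 4.18 and RPL3 (ENSG00000100316, chr22:39708970-39715630, hg19) by 3.96, from 67.1 to 129 RPM in the other proteins to 1709 and 1647. Among genes without a snoRNA, RPS15 (3.77), RPL10A (3.61), RPL8 (3.16), RPL18 (2.79) and the stalk gene RPLP0 (2.38) rose most. RPS15 had 237 and 267 RPM with RBFOX2 against 1.76 to 28.6 elsewhere, and did not overlap.

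For some of the hosts, the direction turned when the small genes were left out. With peaks over small genes left out of the members' reads, RPL13A was lower in RBFOX2 than in the other proteins (-1.82, limma adjusted p = 0.000242) and so was RPL7A (-1.20, limma adjusted p = 0.0102). RPL3 was at 0.01 (95% interval -0.69 to 0.70). In all, 10 of the 25 hosts were then higher and 6 lower, among them RPL7A, RPL13A, RPL21, RPL23A and RPL32, with a median of 0.73, while the 35 genes without a snoRNA kept 28 higher and 0 lower. A joined group of peaks that touches a small gene is left out whole, so host reads next to a snoRNA are lost with it.

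hnRNPI libraries lay below the other proteins for nearly all of these genes. Of all genes, 45.5% passed (22.5% higher, 23.0% lower). Of the 60 ribosomal protein genes, 0 were higher and 57 lower, with a median of -1.70 against -0.03 for all genes, and RPL26, RPL35A and RPL37A did not pass. Peaks of RPL26 lie almost wholly, and those of RPS15A partly, within another listed gene, so their values are uncertain. RPS2 and RPL27A, among others, also overlap in part a listed gene that is not counted as a nested small gene. RPS9 (ENSG00000170889), a small-subunit gene, had 12.4 and 7.02 RPM with hnRNPI and 93.7 to 172 in the 6 other libraries (-2.76, SE 0.29, limma adjusted p = 2.11e-09). RPL10A had 1.54 and 2.12 with hnRNPI, 18.1 to 39.1 with hnRNPA1 and hnRNPc, and 299 and 294 with RBFOX2 (-2.65). RPL9 (-2.56) and RPL34 (-2.50) followed. For each of these 4 genes both hnRNPI libraries lay below the 6 others.

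hnRNPA1 and hnRNPc were mixed. In hnRNPA1, 8 ribosomal protein genes were higher and 11 lower, where 19.3% of all genes passed (10.8% higher, 8.50% lower). RPL37 (ENSG00000145592) had 169 and 179 RPM with hnRNPA1 against 8.14 to 114 elsewhere (1.87, SE 0.40, limma adjusted p = 0.000840). RPS3, which also acts in DNA repair, had 236 and 201, more than with hnRNPc or hnRNPI but less than the 397 and 372 of RBFOX2 (1.07, limma adjusted p = 0.000315). RPS7 (1.00) and RPL6 (0.90) were also higher. The lowest were RPS15 (-2.02), with 4.25 and 1.76 RPM, RPL35A (-1.55), RPL13A (-1.54) and RPS12 (-1.12). RPL13A in hnRNPA1 (60.6 and 44.4 RPM) overlapped hnRNPc and hnRNPI and lay below RBFOX2 alone. With the small genes left out RPL13A was higher in hnRNPA1 (1.29, limma adjusted p = 0.0216), and RPS12 was at 0.66 (limma adjusted p = 0.368).

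In hnRNPc, 6 ribosomal protein genes were higher and 14 lower, where 28.0% of all genes passed (14.1% higher, 13.9% lower). RPL35A (ENSG00000182899) had 119 and 115 RPM against 9.14 to 54.0 with the other proteins, without overlap (1.96, SE 0.38, limma adjusted p = 0.000169). RPL22 (1.32) and the stalk gene RPLP1 (1.00) were also higher. Among the lowest were RPL7A (-1.96), RPL12 (-1.78) and RPL23A (-1.42), all snoRNA hosts. With the small genes left out, RPL12 stayed lower (-1.17), while RPL7A was at 0.11 (limma adjusted p = 0.870) and RPL23A at 0.82 (limma adjusted p = 0.117). Of the 14 lower genes 12 were hosts. The mean of the other 3 proteins includes RBFOX2, in which all 25 hosts were higher, with a median of 2.87. The part of RBFOX2 in these falls was not tested. With the small genes left out, hnRNPc had 13 higher and 3 lower and hnRNPA1 15 higher and 4 lower. With each library centred on its median the counts were 2 higher and 17 lower in hnRNPc, and 2 higher and 9 lower in hnRNPA1.

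**Figure D4:**
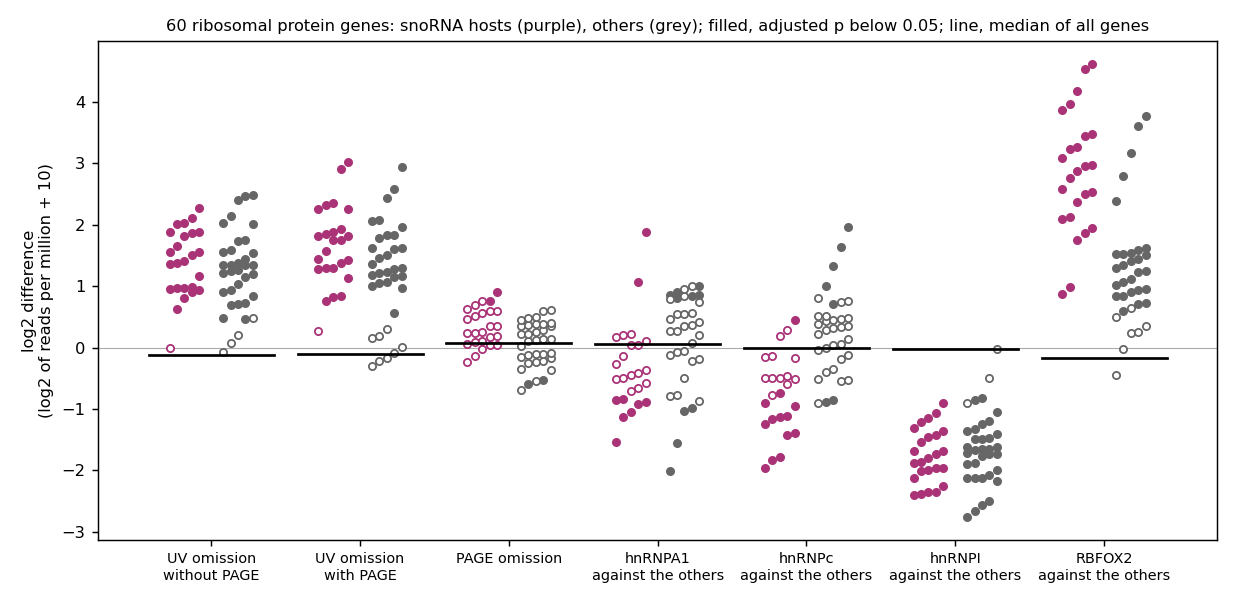
Log2 differences of the 60 ribosomal protein genes in 7 comparisons, from limma on log2(RPM + 10); purple points are the 25 snoRNA hosts, grey points the 35 others, filled points passed an adjusted p of 0.05 and black lines are medians of all 17075 genes. Nearly all points lie above the line for the 2 UV comparisons and for RBFOX2, and below it for hnRNPI.

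The rise without UV was spread over most of the genes and over both subunits. Without PAGE, 48.0% of all genes passed (14.1% higher, 33.9% lower), and of the 60 ribosomal protein genes 55 were higher and 0 lower, with a median of 1.34 against -0.12 for all genes. With PAGE, 43.7% of all genes passed (13.7% higher, 30.0% lower), and 51 were higher and 0 lower (median 1.40 against -0.10). Without PAGE the higher genes were 33 of 36 of the large subunit, 19 of 21 of the small subunit and 3 of 3 of the stalk, with medians of 1.35, 1.26 and 1.44. Hosts (24 of 25) and other genes (31 of 35) both rose. RPL22, RPS7 and RPS15A passed in neither comparison. RPL22 had 37.9 and 39.1 RPM with UV and 37.9 and 29.4 without in hnRNPA1, and 109 and 89.2 against 85.0 and 91.0 in hnRNPc, so the values overlapped or lay close. With the small genes left out, 55 and 50 genes were higher and 0 lower. Centring each library on its median moved the median of all genes without PAGE from -0.12 to 0.43 and that of the ribosomal protein genes to 1.89, with 58 higher and 0 lower.

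RPL14 (ENSG00000188846, listed peaks at chr3:40498825-40503849, hg19) and RPL7 (ENSG00000147604), large-subunit genes without snoRNAs, rose most without PAGE. RPL14 had 47.9 and 45.1 RPM with UV and 201 and 158 without in hnRNPA1, 31.2 and 28.5 against 121 and 159 in hnRNPc, 7.22 and 4.25 against 91.5 and 85.1 in hnRNPI, and 51.0 and 54.6 against 792 and 794 in RBFOX2. Both libraries without UV were higher in all 4 proteins (2.49, SE 0.24, limma adjusted p = 1.55e-10). RPL7 differed by 2.46 and went from 61.6 and 64.9 to 542 and 581 in RBFOX2. RPL8, which binds near the peptidyl transferase centre, differed by 2.40. With PAGE, RPL4 (3.03), RPL8 (2.94) and RPL19 (2.58) were among the greatest rises, and hnRNPc replicate 1 held 0 reads for each of these 3 genes. RPL4 had 231 and 288 RPM with UV and 1520 and 1946 without in RBFOX2, and 117 and 119 against 984 and 830 in hnRNPA1.

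The 3 stalk genes were also higher without UV over the 4 proteins. RPLP2 was higher by 1.81 without PAGE and 2.26 with PAGE (limma adjusted p = 2.23e-09 and 9.23e-12), RPLP1 by 1.44 and 1.61, and RPLP0 by 0.94 and 1.01. RPLP0 was not higher in hnRNPA1, with 46.9 and 43.5 RPM with UV and 44.5 and 28.1 without, while in hnRNPI it went from 20.3 and 14.5 to 214 and 182. In hnRNPc with PAGE, RPLP2 alone of the 3 was higher on average without UV, and RPLP0 went from 905 and 163 to 104 and 125. The difference between proteins was not tested.

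Leaving out PAGE changed few genes. Of all genes, 3.88% passed (2.68% higher, 1.20% lower), and of the ribosomal protein genes 2 were higher, RPL4 (0.90, SE 0.25, limma adjusted p = 0.0264) and RPS13 (0.76, limma adjusted p = 0.0412), and 2 lower, RPS24 (-0.59, limma adjusted p = 0.0406) and RPS19 (-0.53, limma adjusted p = 0.0191). With the small genes left out, 0 were higher and 5 lower: RPL4 and RPS13 lost their calls (limma adjusted p = 0.121 and 0.129), RPL3 (-0.87), RPL7A (-1.16) and RPL32 (-0.59) were lower, and RPS24 and RPS19 were as before. RPL4 went in RBFOX2 from 231 and 288 to 681 and 679 RPM and in hnRNPA1 from 117 and 119 to 159 and 149, while in hnRNPc it went from 0 and 101 to 103 and 75.2. RPS24 had 1423 and 321 in hnRNPc with PAGE and 121 and 143 without. The differences of RPL4, RPS13, RPS24 and RPS19 depended on which hnRNPc library with PAGE was kept. Without replicate 1, which has 3268 listed peaks, they were 0.47, 0.39, -0.32 and -0.42, in that order. Without replicate 2, which leaves only that short list in the group, they were 1.34, 1.13, -0.85 and -0.64.

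Which genes took most of the reads also differed. The read counts here are not divided by gene length, so they are shares and not levels of expression. Over the crosslinked libraries without PAGE, the genes with most RPM included RPL3 (495), RPL13A (417), RPL7A (256), RPS2 (244), RPL4 (239), RPL5 (213) and RPL13 (184), each a snoRNA host. RBFOX2 carries much of this order: RPL13A had 1559 and 1462 RPM there and 44.4 to 61.7 with the other proteins. In the other proteins the leading genes were RPS3 and RPL5 in hnRNPA1, RPL5 in both hnRNPc libraries, and RPL5 and RPL37A in hnRNPI. Over the libraries without UV they included RPL3 (858), RPL4 (831), RPS3 (740), RPS2 (704), RPL5 (685), RPL13A (635) and RPS24 (475), of which RPS24 holds no snoRNA. RPL3 led in RBFOX2 without PAGE, with 10.7% and 10.4% of ribosomal protein reads. RPS3 led in hnRNPA1 without UV and PAGE, with 10.9% and 12.4%, and had 1410 and 1238 RPM there.

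Within the listed span of the genes, a larger part of the reads lay in the last 10% without UV, and in hnRNPc also in the first 10%. The 56 genes whose listed peaks span at most 1.5 times their RefSeq length were used. For each, the span from the first to the last peak listed in any library was cut into 10 equal parts along the strand. Introns were included and small genes left out. This span was 0.447 of the RefSeq length for RPL14 and 0.620 for RPL13, so its ends need not be those of the gene. In hnRNPA1 the last 10% of the span held 7.53% and 8.09% of reads with UV and 15.9% and 15.8% without UV, both without PAGE. In RBFOX2 it held 5.93% and 6.54% against 11.2% and 11.3%, in hnRNPc 6.54% and 5.94% against 9.77% and 10.1%, and in hnRNPI 9.94% and 8.73% against 13.0% and 12.4%. The libraries without UV were higher in each of the 4 proteins, and with PAGE as well. The first 10% in hnRNPc went from 6.80% and 7.39% to 14.1% and 16.1% without PAGE, more than the last 10%. In RBFOX2 without PAGE it went from 13.6% and 14.2% to 18.1% and 17.8%, without overlap, while with PAGE the pairs overlapped at 19.5% and 18.5% with UV and 18.7% and 17.9% without. In hnRNPI without PAGE it was 15.4% and 14.4% with UV and 15.8% and 16.0% without. It stayed within 7.25% and 9.71% in hnRNPA1 under all 4 conditions. No test was made for these shares.

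**Figure D5:**
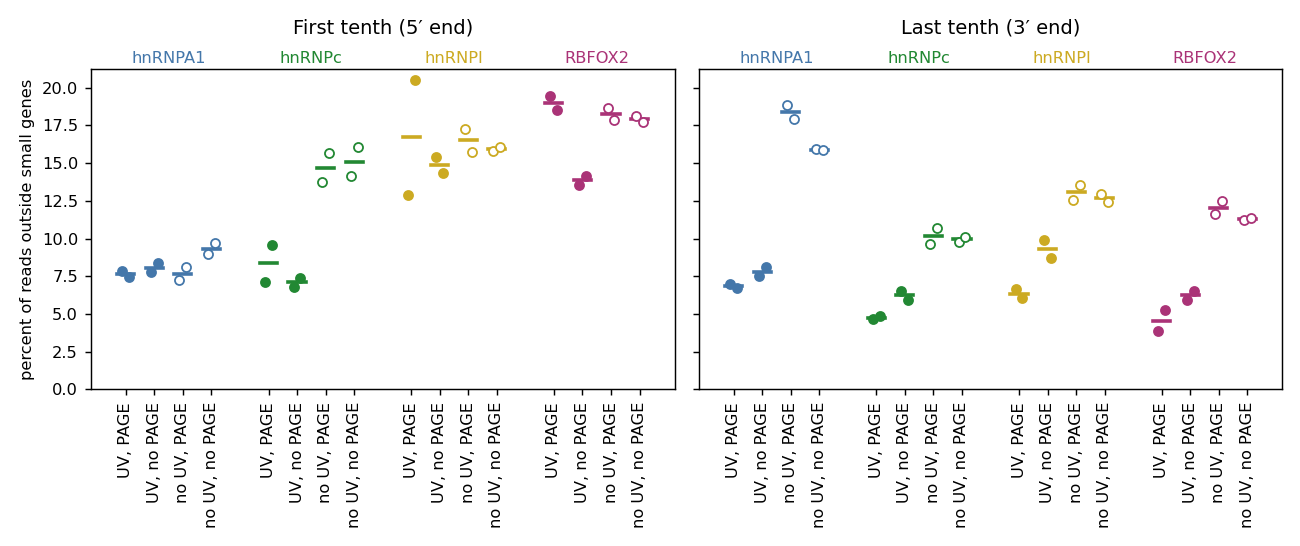
Percent of ribosomal protein gene reads outside small genes in the first 10% (left) and last 10% (right) of each gene's span of listed peaks. The 4 proteins and 4 conditions are drawn on linear axes. Circles are libraries (filled, UV; open, no UV) and bars are means of 2; in the last 10% every open circle lies above the filled circles of its protein.

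Peaks on ribosomal protein genes were narrower and held more reads than peaks in general. Their median width was below that of all peaks in 39 of 44 crosslinked and 14 of 16 libraries without UV. In hnRNPA1 without UV and PAGE it was 29 and 33 nt against 65 and 64 nt for all peaks, and in RBFOX2 with UV and without PAGE 40 and 42 nt against 59 and 59 nt. The median ribosomal protein peak of those RBFOX2 libraries held 53 and 53 reads against 11 and 11 for all peaks. More reads per peak were found in 42 of 44 crosslinked libraries and 16 of 16 without UV.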

How the data were processed

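RNA fragments bound to 4 proteins were profiled in 68 HEK293T libraries. The deposited files are peak lists, 1 per library; they were called with CLIPper per the names of the deposited files, with a p-value per peak computed by the authors. The submitters' processing notes name bcl2fastq, STAR 2.7.3a, UMI-tools 1.0.1 and hg19; no settings or order are stated. The list p-value was used only to rank peaks and for a stricter limit of 1e-05.

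Peaks were counted per gene identifier. The number at the end of a peak's name was taken as its reads. Symbols came from RefSeq's gene table by chromosome, strand and gene order, as its assembly differs from hg19; all 60 genes were matched, with offsets up to 2.87 Mb. The gene list and the comparisons were chosen with earlier results of these data known. Shares were compared with exact permutation tests, Benjamini-Hochberg adjusted over 14. Genes with a peak in at least 8 of 60 libraries (17075) were tested with limma 3.58.1 (R 4.3.3; trend and robust, 30 groups) on log2(RPM + 10), RPM being reads per 1000000 listed reads, adjusted over all of them at 0.05. Both procedures were tested on simulated data. Other work used Python 3.11.15, pandas 2.3.3, numpy 2.4.6 and scipy 1.17.1.

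Named genes are the 8 with most RPM with UV without PAGE and the 8 without UV, the 4 largest rises and falls called in each comparison, and the 3 listed least often; RPL22, RPS7, the stalk genes and the genes without a snoRNA that were highest in RBFOX2 were added after their values were seen. Other TOP genes and ribosomal protein genes outside the list were not analysed here. Equal replicate numbers did not mark paired libraries: correlations of their deviations lay between -0.075 and 0.061. Alternatives were other pseudocounts, filters, scalings and counting rules, a replicate block, and each library left out. Alternatives added after seeing the data were lists of 18000 peaks, and leaving out nested small genes (at most 200 nt) or the 4 genes with a wide listed extent. Some genes that these rules name are not reported here.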

Additional observations from a re-analysis of the deposited data

Results flagged for a closer look

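Proteins moved in opposite directions under the same change of preparation in 3 measures, with both libraries of a group on 1 side of both libraries of the other; the difference between proteins was not tested. When PAGE was left out, the ribosomal protein share of peaks moved by -0.0415 with hnRNPA1 and -1.60 with hnRNPc, and by 0.14 with hnRNPI and 0.50 with RBFOX2, on the log2 scale. The share of reads moved by -0.90 with hnRNPc, 0.25 with hnRNPI and 0.74 with RBFOX2. Outside the nested small genes neither of these 2 rises was seen. There hnRNPI had 0.0819% and 0.0845% of reads with PAGE and 0.0805% and 0.0754% without, and the RBFOX2 pairs overlapped. When UV was left out with PAGE, the share of peaks moved by 1.27 with hnRNPA1, 2.92 with hnRNPI and 2.53 with RBFOX2, and by -1.06 with hnRNPc. All 3 hnRNPc values rest on the pair with 1.19% and 0.291% of peaks and 0.872% and 0.488% of reads on ribosomal protein genes, of which the first library has 3268 listed peaks; the part of that library in the difference was not tested.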

How the results depend on the processing

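Differences of shares are on the log2 scale. Held to 18000 peaks per list, the peak share with PAGE left out turned from -0.25 to 0.43 (exact permutation p = 0.0278), RecJ peaks to -0.0628 (exact permutation p = 0.584), RecJ reads to -0.0472 (exact permutation p = 0.559) and the cell number slope of peaks to 0.20 (exact permutation p = 0.000988). For reads with PAGE left out, summing all peaks gave -0.0783 and leaving out nested small genes -0.26 (exact permutation p = 0.0293), against 0.02. In percentage points, the UV difference of peaks with PAGE was 0.544 (exact permutation p = 0.0787), the range of proteins with PAGE in peaks 0.631 (exact permutation p = 0.181) and RecJ reads 0.0229 (exact permutation p = 0.0361). With the replicate block, the UV difference of peaks with PAGE kept 1.42 but lost its call (exact permutation p = 0.0625), and RecJ reads at 0.0432 gained one (exact permutation p = 0.0371); the block changed no other call of a share. For hnRNPc at 0.005 U with PAGE, replicate 1 has fewer than 18000 peaks and entered whole.

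Leaving out 1 library at a time, the ranges for peaks were -0.505 to 0.00379 (PAGE left out), 1.16 to 1.67 (UV with PAGE), 1.52 to 1.68 (UV without PAGE), 0.0290 to 0.0627 (RecJ), 1.94 to 1.96 (proteins without PAGE), 1.59 to 3.42 (proteins with PAGE) and -0.198 to -0.133 (cell number). For reads they were -0.0841 to 0.125, 1.53 to 1.74, 1.56 to 1.66, 0.0241 to 0.0623, 3.53 to 3.76, 3.07 to 3.25 and -0.103 to -0.0552, in the same order.

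Counts of ribosomal protein genes called by limma varied as follows. With PAGE left out, 4 became 0 with a pseudocount of 1, with centred libraries, with peaks per 1000000 or with only the groups compared, 11 with a pseudocount of 100 and 10 with summed peaks, and 0 to 44 without 1 library. For hnRNPA1, 19 became 4 with a pseudocount of 1, 11 centred, 1 with peaks per 1000000 and 43 with only the groups compared, where 60.1% of all genes passed, and 3 to 18 without 1 library (3 without hnRNPA1 replicate 2 without PAGE). For hnRNPc, 20 became 10 with a pseudocount of 1, 1 with peaks per 1000000 and 45 with only the groups compared, where 64.2% passed, and 10 to 19 without 1 library (10 without hnRNPc replicate 2 without PAGE). For hnRNPI, 57 became 14 with peaks per 1000000, and 49 to 57 without 1 library. UV without PAGE gave 49 to 58, UV with PAGE 44 to 53 and RBFOX2 39 to 58 over all alternatives. Without 1 library these were 52 to 55, 50 to 53 and 42 to 51. The cause was not tested.

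Single genes turned in 9 cases. With peaks per 1000000, RPS3 (-0.50), RPS7 (-0.15) and RPL6 (-0.32) turned in hnRNPA1. With nested small genes left out, RPL13A (1.29) and RPS12 (0.66) turned in hnRNPA1, RPL7A (0.11) and RPL23A (0.82) in hnRNPc, and RPL13A (-1.82) and RPL7A (-1.20) in RBFOX2. In the last 4 cases and those of hnRNPA1 this alternative removes the reads over snoRNAs by construction. With no depth in the lists, no floor for an unlisted gene can be given.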

Other observations

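How alike the 60 genes' read profiles were between proteins was described with Pearson's r over the 60 genes, for the 24 pairs of libraries of different proteins in each condition. The genes are not independent replicates, and they share length and snoRNA content between libraries. Without PAGE, the median r was 0.517 with UV (0.110 to 0.593) and 0.590 without UV (0.473 to 0.797). With PAGE it was 0.408 with UV and 0.535 without. The libraries with UV and PAGE include hnRNPc replicate 1, with 3268 listed peaks and a peak in only 26 of the 60 genes. The part of that library in the lower median was not tested. The number of ribosomal protein genes that together hold 50% of the ribosomal protein reads was 9 and 9 in RBFOX2 with UV and without PAGE, 15 and 14 in hnRNPA1, 16 and 16 in hnRNPc, and 12 and 12 in hnRNPI. Without UV or PAGE it was 12 and 12 in RBFOX2, 9 and 9 in hnRNPA1, 17 and 17 in hnRNPc, and 11 and 12 in hnRNPI, so reads lay on fewer genes without UV in hnRNPA1 and on more in RBFOX2.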
